A study of Mus musculus with 2 samples.

Results

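Collagen chains are the subunits of the proteins that give tissue its fibrils, its basement membranes and its finer networks. They were taken as the probe sets whose only gene symbol reads Col, a number, a and a number, on arrays of whole implantation sites. There were 58 such probe sets for 36 genes, among 22626 probe sets and 12393 genes in all. The control group was 1 array of implantation sites from control uteri, and the Cbs null group was 1 array of sites from females homozygous for loss of Cbs, the enzyme that joins homocysteine to serine. Females of both groups were 4 months old, of mixed C57Bl/6J and OLA129 background and on day 8 of pregnancy, and the genotype of the embryos and the number of animals behind an array are not given. With 1 array per genotype nothing could be tested between genotypes. Every value below describes these 2 arrays, and their number limits the precision.

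Each collagen chain carries long stretches in which glycine recurs at regular steps, and chains wind together in triplets. Fibrillar collagens assemble into the cross-banded fibrils of stroma, type IV collagens form the sheet under epithelia and around vessels, muscle and fat cells, and other types link, coat or anchor these structures. In the pregnant mouse uterus the stroma around the embryo becomes decidua, whose cells remodel fibrils and lay down a basement membrane-like coat. The series set out to find expression changes at implantation sites when Cbs is absent in the mother.

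Signal is the array intensity of a probe set on a linear scale, and a log2 ratio is Cbs null over control. Collagen probe sets were described in full where their mean signal over both arrays reached 70.5, the median of all probe sets. This held for 32 collagen probe sets of 19 genes, and every one of them also exceeded 70.5 on each array alone. A gene with several such probe sets was represented by its brightest. Of the 19 genes 7 were fibrillar, 6 belonged to basement membranes and 6 to other classes.

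The collagen genes gave nearly equal signal on both arrays. Their median log2 ratio was 0.02, the same as that of all 7079 genes that passed the filter, and the ratios of the 19 genes ran from -0.49 for Col11a1 to 0.42 for Col14a1. Summed over their representative probe sets, the signal came to 52495 on the control array and 53235 on the Cbs null array, a ratio of 1.01. None of the 19 was at least 1.5-fold higher or lower, against 2.46% of all genes that were higher and 1.33% that were lower. None was 2-fold apart in either direction, where 0.622% of all genes were higher and 0.283% lower. A ratio above 0 was found in 12 of 19 collagen genes and in 55.0% of all genes, and in 9 of the 19 once ratios were centred on the median of all genes. Across the 32 collagen probe sets, 1 was at least 1.5-fold higher and none lower, where the shares among all probe sets were 2.59% and 1.65%.

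**Figure D1:**
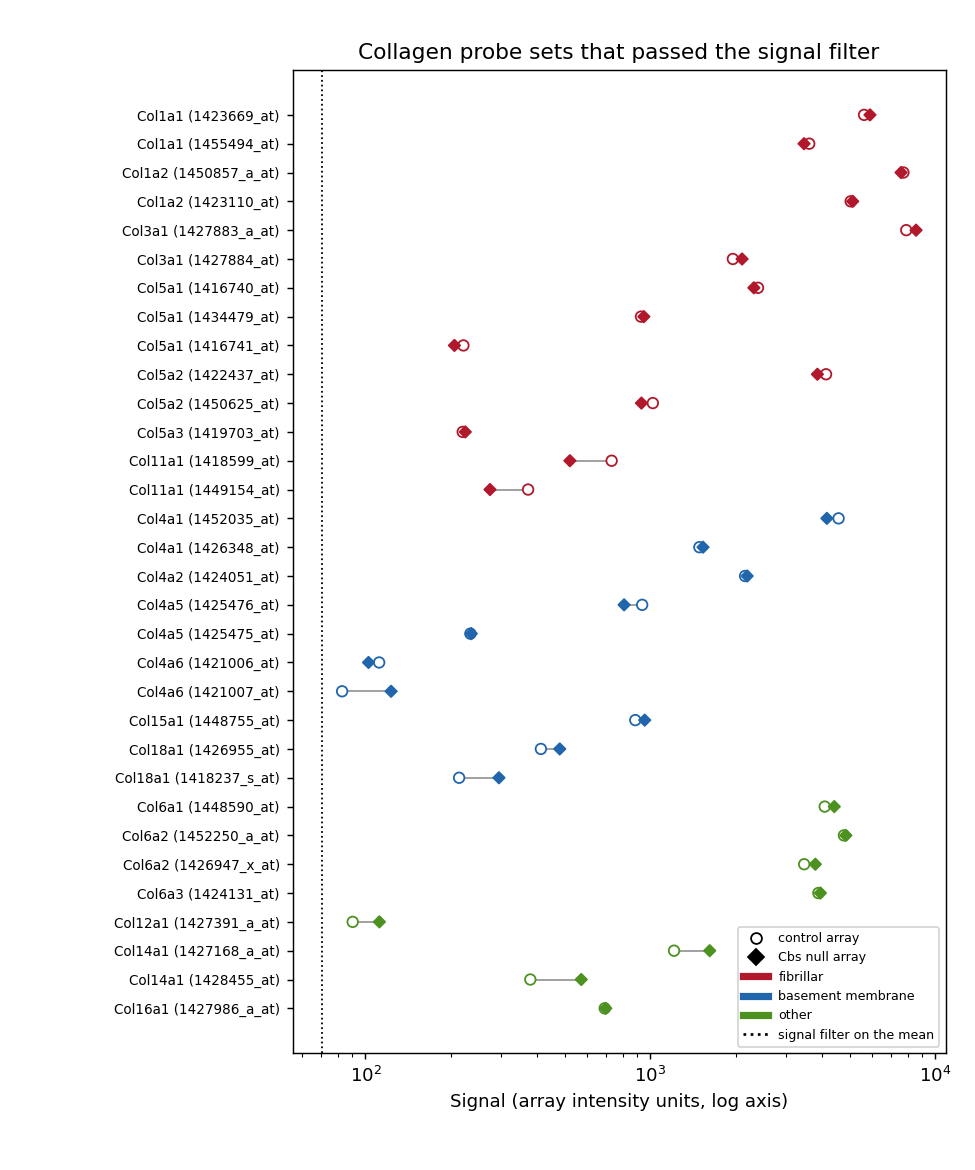
Signal of the 32 collagen probe sets that passed the filter, on the control array (open circles) and the Cbs null array (diamonds), on a log axis in intensity units, coloured by class. Most pairs of symbols touch, while Col11a1 lies to the left and Col14a1 to the right in Cbs null with both of their probe sets.

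Proximal promoter sequence is shown for 3 fibrillar genes, Col1a2 and Col3a1, whose ratios lay close to 0, and Col11a1, the lowest of the collagens. Each line gives the 250 bases before the annotated start, 5′ to 3′ on the gene's strand, from RefSeq on build GRCm38.p6. Capitals mark TATAAA (the TATA box), CCAAT (the CCAAT box) and GGGCGG (the GC box) on either strand. No marked stretches overlap. The windows are chr6:4505368-4505617, chr1:45311288-45311537 and chr3:114030290-114030539 in the order of the lines, all on the plus strand.
Col1a2: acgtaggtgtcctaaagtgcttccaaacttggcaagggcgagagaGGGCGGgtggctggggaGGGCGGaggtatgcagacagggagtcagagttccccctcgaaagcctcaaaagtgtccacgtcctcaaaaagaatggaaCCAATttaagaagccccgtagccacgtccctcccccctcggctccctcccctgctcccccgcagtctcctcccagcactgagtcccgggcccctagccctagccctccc
Col3a1: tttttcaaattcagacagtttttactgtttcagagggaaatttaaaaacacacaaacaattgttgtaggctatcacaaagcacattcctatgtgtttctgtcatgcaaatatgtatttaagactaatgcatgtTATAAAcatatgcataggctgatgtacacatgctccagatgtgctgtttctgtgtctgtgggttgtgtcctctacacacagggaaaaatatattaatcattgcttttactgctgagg
Col11a1: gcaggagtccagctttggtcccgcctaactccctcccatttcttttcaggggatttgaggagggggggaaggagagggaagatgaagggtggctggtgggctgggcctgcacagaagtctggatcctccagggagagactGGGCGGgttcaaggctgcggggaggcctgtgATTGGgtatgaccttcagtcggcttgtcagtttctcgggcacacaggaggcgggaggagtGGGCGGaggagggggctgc
The Col3a1 window held TATAAA beginning 117 bases before the start. The Col1a2 window held CCAAT beginning 109 bases before the start and GGGCGG beginning 205 and 188 bases before it. Col11a1 held CCAAT on the opposite strand from 79 bases and GGGCGG from 110 and 19 bases before its start. A match is a description of these letters only.

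RefSeq windows were matched for 27 of the 36 collagen genes on the array, with 30 windows. Of these 30 windows 16 held GGGCGG, or 53.3%, against 32.7% of 32851 windows of the same length over all genes. CCAAT was in 12 of the 30, against 33.8% of all windows, and TATAAA in 5, or 16.7%, against 12.4%. Among the 17 windows of collagen genes that passed the signal filter, 11 held GGGCGG, 8 CCAAT and 1, that of Col3a1, TATAAA. These windows cover 15 genes, as Col6a2 and Col18a1 are each counted more than once. No window was matched for Col1a1, Col5a2, Col12a1 and Col14a1. Several collagen genes are neighbours in the same annotation. They include Col4a1 with Col4a2, Col4a4 with Col4a3, Col4a6 with Col4a5, and Col3a1 with Col5a2. Col4a1 and Col4a2 are read in opposite directions, as are Col4a6 and Col4a5.

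Fibrillar collagens, the fibril formers of stroma, had a median log2 ratio of -0.03 over 7 genes, with 3 ratios above 0, and 0.02 with the second brightest probe set of each gene. Their summed signal came to 28697 on the control array and 28915 on the Cbs null array. Col1a1, the major chain of type I collagen, read 5617.0 in control and 5890.8 in Cbs null, a log2 ratio of 0.07. Its other probe set read 3605.6 and 3458.3, at -0.06. The signs of the pair are opposite, so these readings give no direction for Col1a1.

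Col1a2, which joins 2 chains of Col1a1 in each type I molecule, read 7718.1 in control and 7572.1 in Cbs null, a log2 ratio of -0.03. Its other probe set read 5041.1 and 5122.7, at 0.02. The ratios of Col1a1 and Col1a2 thus lay 0.10 apart. Col3a1, the sole chain of type III collagen in pliable tissue such as the uterus, read 7896.9 in control and 8548.0 in Cbs null. Its log2 ratio was 0.11, and the other probe set, at 1946.1 and 2096.1, also gave 0.11. Col3a1 was therefore 1.08-fold higher on the Cbs null array in each of its probe sets. By ratio it stood at percentile 67.5 of all genes.

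Type V collagen is built into type I fibrils and governs their start and width. Col5a1 had 3 probe sets, with signals of 2384.1 and 2306.0, 926.4 and 948.0, and 220.6 and 205.2 in control and Cbs null. Their log2 ratios were -0.05, 0.03 and -0.10. Col5a2 was slightly lower in both of its probe sets. The brighter read 4131.0 in control and 3852.3 in Cbs null, at -0.10, and the dimmer 1019.3 and 929.8, at -0.13. Col5a2 lies beside Col3a1 in the genome, and the log2 ratios of these neighbours lay 0.22 apart. Col5a3, a chain found in fewer tissues, read 219.4 and 224.0, at 0.03, and its other probe set read 1.8 on both arrays.

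Col11a1, a chain of type XI collagen that nucleates thin fibrils and is best known from cartilage, had the lowest ratio of the collagens. Its brighter probe set read 730.8 in control and 521.6 in Cbs null, and its other probe set read 372.1 and 273.5. The log2 ratios were -0.49 and -0.44, so the readings were lower in Cbs null by a like amount. Both readings lay below the central 95% of genes of like signal, which ran from -0.41 to 0.46 in the brightest tertile of genes and from -0.42 to 0.54 in the middle tertile. By ratio the brighter probe set stood at percentile 2.37 of all genes. Col11a1 also assembles with Col5a2, whose log2 ratio lay 0.39 away. Its usual partner Col11a2 read 18.5 in control and 18.9 in Cbs null, under the filter. Across alternative processing the ratio of Col11a1 stayed between -0.51 and -0.44.

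In all, 3 of the 32 collagen probe sets lay outside the central 95% of genes in their tertile of signal, 2 lower and 1 higher. Among all 10406 probe sets with a single gene that passed the filter the share was 5.79%. The 3 were both probe sets of Col11a1 and the dimmer probe set of Col14a1.

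**Figure D2:**
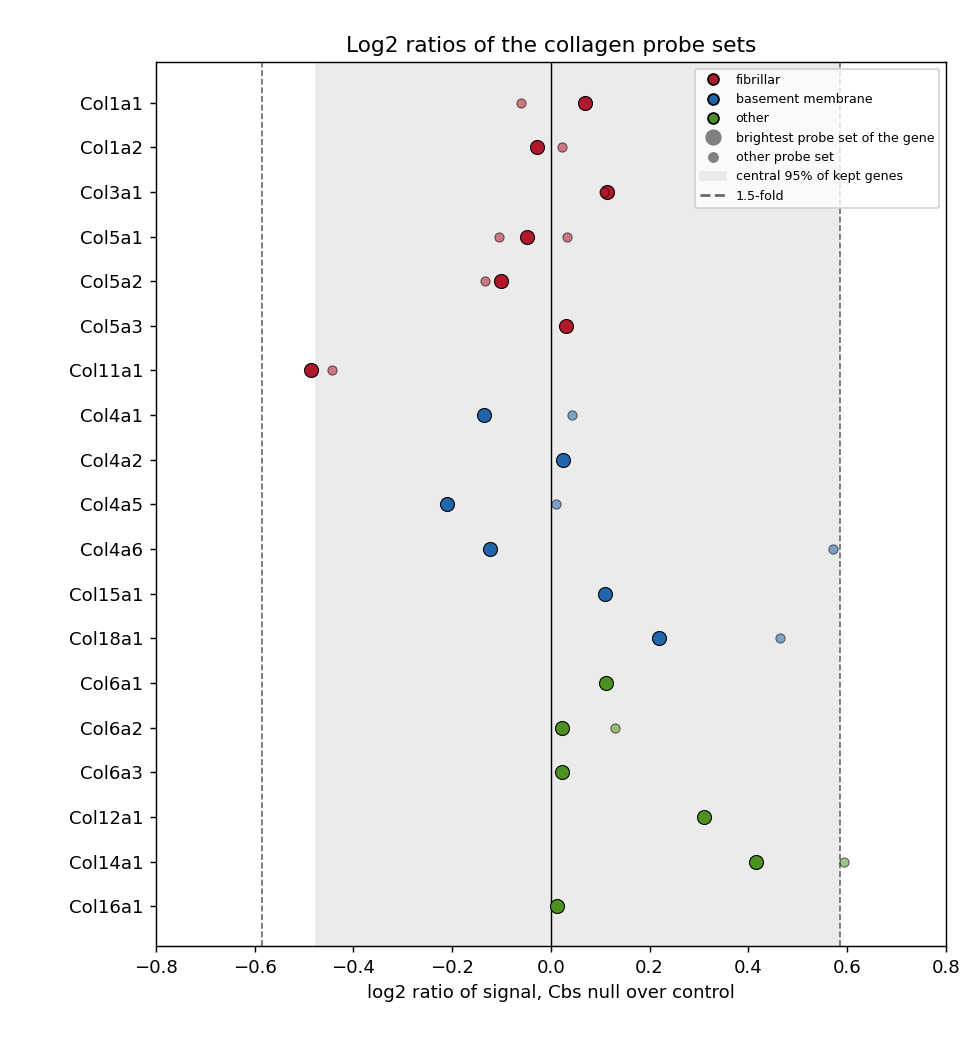
Log2 ratio of signal, Cbs null over control, for each collagen probe set that passed the filter, by gene and class, with the brightest probe set of a gene drawn larger. The grey band is the central 95% of all genes that passed the filter, from -0.48 to 0.58, and the dashed lines mark 1.5-fold. Col11a1 at -0.49 is the only large symbol outside the band, and Col4a6 has symbols on both sides of 0.

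Basement membrane collagens comprised the type IV chains, which form the sheet itself, and the multiplexins Col15a1 and Col18a1, which sit at its border. Their 6 genes had a median log2 ratio of -0.05, with 3 above 0, and a summed signal of 9063 in control and 8689 in Cbs null. The median was 0.07 when all probe sets of a gene were used and 0.08 with the second brightest, and it was 0.02 with the filter at the 75th percentile and 0.01 with no filter. The direction of the class thus depended on the probe set and on the filter. Type IV chains alone had a median of -0.13 over 4 genes, by the brightest probe set of each. This too depended on the probe set, as the second ones of Col4a1, Col4a5 and Col4a6 had 0.04, 0.01 and 0.57.

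Col4a1 and Col4a2 encode the common network, in which 2 chains of the first wind with 1 of the second. Col4a1 read 4571.5 in control and 4159.5 in Cbs null, a log2 ratio of -0.14. Its other probe set read 1484.5 and 1528.8, at 0.04. Col4a2 read 2147.6 and 2184.1 in its only probe set, at 0.02. The representative ratios of these neighbours lay 0.16 apart, which is less than the difference of 0.18 between both probe sets of Col4a1.

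Col4a5 and Col4a6 encode X-linked chains of more restricted networks. Col4a5 read 935.2 in control and 808.1 in Cbs null, at -0.21, but 233.4 and 235.2, at 0.01, in its other probe set. Col4a6 read 111.7 and 102.5, at -0.12, in the slightly brighter probe set. It read 82.8 and 123.0, at 0.57, in the other. Among the 12 collagen genes with several probe sets above the filter none had its 2 brightest so far apart, at 0.69 on the log2 scale, so its direction is not settled by these arrays. Col4a3 and Col4a4, which join Col4a5 in the kidney glomerulus, gave signals between 4.9 and 15.7 and could not be followed.

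Col18a1, the source of endostatin, was higher in both of its probe sets. They read 412.6 in control and 480.5 in Cbs null, at 0.22, and 213.1 and 294.0, at 0.46. The second may match several transcripts, as its _s_at suffix states, and both lay within the central 95% of genes of like signal. Col15a1, which is found in the basement membrane zone of vessels, muscle and fat cells, read 884.7 and 954.5, at 0.11.

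The 6 collagen genes of the other classes that passed the filter had ratios above 0, with a median of 0.07, but 3 of them (Col6a2, Col6a3 and Col16a1) lay under 0 with median centring, and Col6a2 also with quantile normalization. Their summed signal came to 14734 on the control array and 15631 on the Cbs null array, a ratio of 1.06. Type VI collagen forms beaded filaments around cells from chains of all 3 genes on the array. Col6a1 read 4087.2 in control and 4414.6 in Cbs null, at 0.11. Col6a2 read 4773.1 and 4847.9, at 0.02, and 3461.8 and 3788.5, at 0.13, in a probe set that may match several transcripts. Col6a3 read 3882.9 and 3946.3, at 0.02. The chains of this assembly therefore lay within 0.09 of each other by their representative ratios.

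Fibril-associated collagens with interrupted helices, which coat fibrils without forming them, held the highest ratio among the collagens. Col14a1, which binds fibrils of type I collagen and limits their lateral growth, gave 1209.8 with control and 1613.8 with Cbs null RNA in its brighter probe set. The other read 378.8 and 571.7. The log2 ratios were 0.42 and 0.59, that is 1.33-fold and 1.51-fold higher in Cbs null. The dimmer probe set was the only collagen reading above the filter that was at least 1.5-fold apart, and it lay above the central range of its tertile of signal, while the brighter lay within it, at percentile 94.2 of all genes. Across alternative processing the ratio of Col14a1 ran from 0.39 to 0.59.

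Col12a1, a close relative of Col14a1, read 90.2 in control and 111.9 in Cbs null, at 0.31. This single dim probe set lay within the central range of the dimmest tertile of genes, from -0.53 to 0.66. Col16a1, which joins fibrils to their surroundings, read 690.9 and 696.9, at 0.01. The higher readings among fibril-associated collagens thus rested on Col14a1 and Col12a1.

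**Figure D3:**
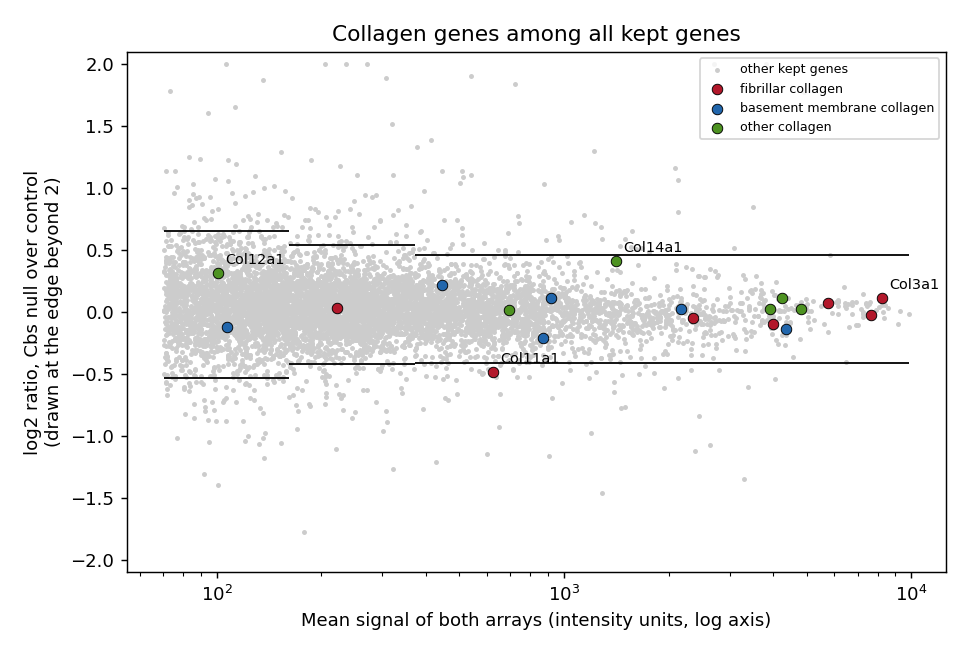
Mean signal of both arrays (log axis, intensity units) against the log2 ratio, Cbs null over control, for the 7079 genes that passed the filter, with collagens in colour and the central 95% of each tertile of signal between black lines. Col11a1 is the only collagen gene outside its lines, and Col14a1 lies just inside them.

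Many collagen genes gave little signal in these sites, several cartilage types among them, although Col11a1 read well above the filter. The 17 genes with no probe set above the filter were Col2a1, Col11a2, Col4a3, Col4a4, Col7a1, Col8a1, Col9a1, Col9a2, Col9a3, Col10a1, Col13a1, Col17a1, Col19a1, Col20a1, Col22a1, Col25a1 and Col26a1. The 26 collagen probe sets under the filter, including 1 of Col5a3, read from 0.4 to 65.0 in control and from 0.9 to 75.3 in Cbs null. Of these, 17 were under 14.3 on both arrays, the 25th percentile of all signals, below which values were given no order. Another 2 were under it on one array, Col4a3 in control and Col9a1 in Cbs null. Of the 7 above it on both arrays none was 2-fold apart, but the share among all probe sets in that range was not computed. Among these a probe set of Col20a1 read 19.5 and 33.4, 1.71-fold higher in Cbs null, while another of the same gene read 21.1 and 17.1. A low reading does not show that a transcript is absent.

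Col2a1 and Col10a1, the fibril and network collagens of cartilage, were among the 9 genes with every probe set under 14.3 on both arrays, as were Col9a2 and Col9a3. Col17a1, a transmembrane collagen of hemidesmosomes, was also in that group, with readings of 7.2 and 12.8. Col7a1, which anchors epithelial basement membranes, lay just outside the filter with a mean of 70.2 and read 65.0 in control and 75.3 in Cbs null. The dimmest collagen gene above the filter, Col12a1, had a mean of 101. Col8a1, of vessel walls, read 49.5 and 52.3 in its brighter probe set.

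Where a collagen gene had several probe sets above the filter, they served as the only repeated measure. The 2 brightest had the same sign in 6 of 12 collagen genes. Among 2284 genes of the whole array with several such probe sets the share was 62.0%. The difference between them had an SD of 0.21 on the log2 scale for collagens and 0.30 for all genes. Of the 6 collagen genes with a matching sign, Col3a1, Col6a2, Col14a1 and Col18a1 were higher and Col5a2 and Col11a1 lower in Cbs null. Ratios of Col1a1, Col1a2, Col4a1, Col4a5, Col4a6 and Col5a1 had opposite signs between probe sets.

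Genes that make and modify collagen were described next. Of 24 genes of this list on the array 19 passed the filter, with a median log2 ratio of -0.03 and none at least 1.5-fold apart, beside 2.46% of all genes higher and 1.33% lower. Serpinh1, the chaperone that binds the folded collagen helix, read 4487.7 in control and 4234.6 in Cbs null, at -0.08. Ppib, a proline isomerase of the same compartment, read 4242.6 and 4584.9, at 0.11. The extremes of the list, picked after their values were seen, were P3h3, a relative of the prolyl 3-hydroxylases, at 0.55 and Plod2, which hydroxylates lysine in telopeptides, at -0.31. Lox, which starts the cross-linking of fibrils, had -0.09, also a later pick.

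Of 18 measured partners in the fibril 1 was at least 1.5-fold higher and none lower, beside the same 2.46% and 1.33% of all genes, with a median of 0.02. The 1 was Thbs2, a thrombospondin that affects fibril shape, with 60.6 on the control and 98.1 on the Cbs null array, at 0.69. Its control value lay under the filter, so it passed through its Cbs null value. Basement membrane partners had a median of -0.08 over 11 genes, none 1.5-fold apart, with 4 ratios above 0. Among them Nid1, which links laminin to type IV collagen, read 2163.3 and 1964.9, at -0.14, and Lamc1, the common laminin gamma chain, 2044.8 and 1580.7, at -0.37. Receptors for collagen had a median of 0.07 over 4 genes, but its sign turned in 3 of 12 alternatives. Itgb1, the beta chain of the collagen-binding integrins, read 840.7 and 683.5, at -0.30, and Ddr1, a collagen-activated kinase, 719.6 and 803.1, at 0.16. The 3 probe sets of Ddr1 above the filter ran from -0.08 to 0.16, so they gave no direction.

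By their medians, markers of epithelium, natural killer cells, macrophages, adipocytes and conceptus tissues (given below) differed between the arrays more than the collagens did. In whole sites, fewer cells of a type and less RNA per cell cannot be told apart. Epithelial markers had a median log2 ratio of 0.64 over 11 of 14 genes, with a summed signal of 6572 in control and 23227 in Cbs null. Prss29 had 1.78, Prss28 2.86 and Spink1, named after its value was seen, 3.12. These 3 secreted products gave most of the sum, and the other 8 genes summed to 2877 and 4061, with Cdh1 at -0.02. Natural killer cell markers had -0.81 over 8 of 10 genes, with sums of 5888 and 2878, Gzmb at -0.77 and Gzmc at -1.46. Their only ratio above 0 was that of Klrk1, at 0.05. Il2rb, 1 of the middle members at -0.85, passed the filter through its control value, and its other probe set had -0.32. Macrophage markers had 0.44 over 10 of 10 genes, with sums of 5828 and 8150, H2-Aa at 0.52 and Lyz2 at 0.54. Of these 10 ratios 8 were above 0, while Adgre1 was at -0.005 and Fcgr3 at -0.21. Adipocyte markers had 0.61 over 5 of 8 genes, with sums of 3311 and 5074, Fabp4 at 0.81 and Lpl at 0.22. The other probe sets of Fabp4 and Lpl had 0.36 and -0.02. Of the 5 ratios 4 were above 0, and Plin4 went the other way at -0.50. Beside the higher readings of Col14a1 and Col18a1 and the lower ones of Col11a1, the part of these shifts was not tested.

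Markers of stroma and smooth muscle, cells that make fibrillar collagen, lay close to equal. Uterine stroma markers had a median of -0.00 over 12 of 12 genes, with sums of 17638 in control and 17706 in Cbs null, Vim at 0.01 and Des at -0.19. The median hides Bmp2, a growth factor of the decidua, at -1.21. Of the 12, Nt5e passed the filter through its Cbs null value, and Prl8a2, a decidual prolactin, read 2542.7 and 3633.6. Hoxa10, a regulator of uterine stroma, read 1159.9 and 1177.1, so markers of the labelled tissue were present on both arrays. Smooth muscle markers had -0.04 over 9 of 10 genes, with sums of 29785 and 29007, Acta2 at 0.02 and Actg2 at -0.10. Endothelial markers, of cells that lay down type IV collagen, had -0.15 over 12 of 12 genes. Their sums were 4411 and 3946, with Cd34 at -0.20 and Plvap at -0.36. Of the 12 ratios 3 were above 0, the highest that of Tek at 0.26.

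Of the markers of conceptus tissues, few passed the filter. Trophoblast markers had a median log2 ratio of 1.08 over 4 of 10 genes, with sums of 545 and 1099, Tpbpa at 1.39 and Krt7 at 0.29. Yolk sac endoderm markers had 0.92 over 4 of 10, with sums of 1085 and 1544, Rbp4 at 0.00 and Sox17 at 0.05. Afp, which read 24.7 and 384.6, at 3.96, and Ttr, which read 33.0 and 113.6, at 1.78, gave nearly all of that difference in sums. Prl2b1, Prl4a1, Afp and Ttr passed through their Cbs null value. Parietal endoderm and trophoblast giant cells also make type IV collagen, and the part of conceptus tissue in the Col4a1 and Col4a2 signal was not tested. Cbs itself read 30.3 in control and 23.8 in Cbs null, and 29.9 and 22.3 in its other probe set, all under the filter, and the deleted part of the gene is not stated, so it does not check the genotype.

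**Figure D4:**
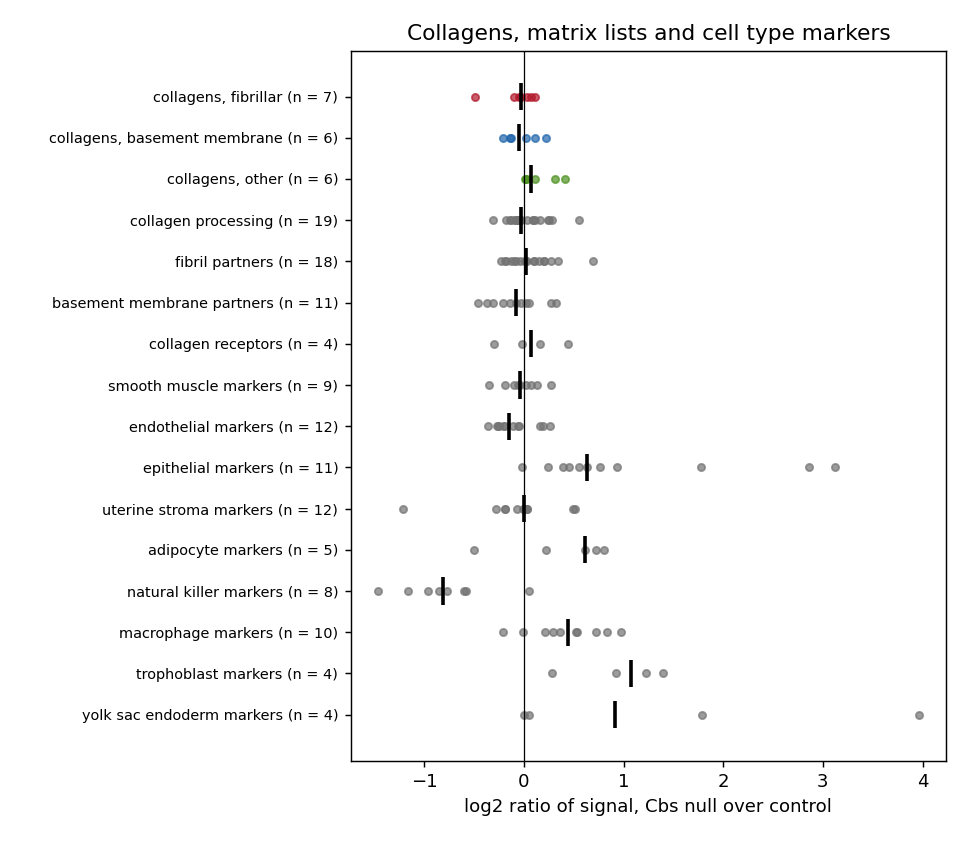
Log2 ratio, Cbs null over control, of every measured gene (points) in the collagen classes, the matrix lists and the cell type marker lists, with the median of each as a black bar. The collagen and stroma medians lie near 0, while the epithelial median is 0.64 and the natural killer cell median -0.81.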

How the data were processed

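RNA of dissected implantation sites was measured on 1 control and 1 Cbs null array. The deposited values are intensity, 1 linear signal per probe set, and the submitters' processing notes name GCOS 1.4 as the software by which the authors made them. Which algorithm and which genome build were used is not given here. The 2% trimmed mean was 200.1 on both arrays, so no further scaling was applied.

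Of 22690 probe sets 64 controls were set aside. A single gene symbol was given for 20380, several for 691 and none for 1555. Symbols were updated through gene identifiers in a RefSeq table of GRCm38.p6, where 20351 matched. Signals under 14.3 were raised to it before taking log2, and the filter was 70.5. Python 3.11.15 was used, and the scripts were tested on simulated data. Collagen genes with a probe set above the filter were printed in full and the others by range; matrix lists by up to 4 members at least 1.5-fold apart, otherwise the 2 brightest, and cell type lists by their 2 brightest. Other list members are later picks. Members and lists were chosen with earlier results of these data known.

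Alternatives were quantile normalization, median centring, loess (span 0.3), other floors (10th and 40th percentiles), a pseudocount of 16, other filters (25th and 75th percentiles, or none), the median over probe sets, and leaving out probe sets ending _s_at or _x_at. The second brightest probe set, type IV chains alone and epithelial sums without 3 genes were added after the data were seen.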

Additional observations from a re-analysis of the deposited data

How the results depend on the processing

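Of 225 recomputed ratios of the 19 collagen genes, 4 moved by more than 0.21 on the log2 scale, the SD attributed to 1 probe set. These were Col4a6, at 0.22 with the median over probe sets and 0.57 with the second brightest, Col18a1, at 0.46, and Col4a5, at 0.01, both with the second brightest. The other floors and filters, and leaving out _s_at and _x_at probe sets, returned the main ratio for each of the 19 genes still covered. They leave the representative probe set of a gene and its signal as they were, so many of the 225 ratios could not move. The sign held under every alternative run for 10 of the 19 genes, Col11a1 and Col14a1 among them. Col4a2, Col5a3, Col6a1, Col12a1 and Col15a1, also among the 10, have a single probe set above the filter. For these the alternatives that combine or exchange probe sets could not change the sign either. No collagen gene was 2-fold apart under any alternative run. The number at least 1.5-fold higher was 1 with the filter at the 25th percentile, 1 with no filter and otherwise 0, except as follows. With these filters the gene was Col20a1, whose dim probe set read 19.5 in control and 33.4 in Cbs null. Another probe set of Col20a1 read 21.1 and 17.1. With the second brightest probe set the number was also 1, and the gene was Col14a1, at 0.59. The share of all genes under these settings was not computed. The basement membrane median was 0.0669 with the median over probe sets and 0.0760 with the second brightest, and its sign also turned with the filter at the 75th percentile (0.02) and with no filter (0.01). Type IV chains alone, by their brightest probe sets, gave -0.13. The processing list had 0.0359 with the filter at the 25th percentile, and 0.0322 with the median over probe sets and 0.0322 with the second brightest. Basement membrane partners had -0.14 without probe sets ending _s_at or _x_at, and receptors -0.0476 with the second brightest. The receptor median was also under 0, at -0.009, with the median over probe sets and without probe sets ending _s_at or _x_at. Each such alternative uses other probe sets or genes. No paired analysis was possible because each genotype has 1 array. Dim collagens are limited by signal over background.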
